A study of Mus musculus with 50 samples.

Results

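The SET1/MLL family is the set of large mammalian enzymes related to yeast Set1 that add methyl groups to lysine 4 of histone H3 (H3K4). Its members here were Setd1a, Setd1b, Kmt2a, Kmt2b, Kmt2c, Kmt2d and Kmt2e, 7 of the 55487 genes in the count files, taken by name and matched through their Ensembl gene identifiers to the GENCODE vM21 annotation, not by any measured value. All 7 passed the filter on low counts, as did 16330 protein-coding genes in all.

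As background, the catalytic members work inside multi-subunit complexes called COMPASS, which share a core of WDR5, RBBP5, ASH2L and DPY30 and differ in their other partners. The SET1-type enzymes place much of the trimethylated H3K4 found at active promoters, the MLL1 and MLL2 enzymes (Kmt2a and Kmt2b) act at narrower sets of developmental genes, and the MLL3 and MLL4 enzymes (Kmt2c and Kmt2d) place monomethylated H3K4 at enhancers, whereas Kmt2e is a relative for which little H3K4 methylating activity is known. Loss-of-function variants of several members, SETD1A among them, are known causes of neurodevelopmental disorders in people, and SETD1A variants are also linked to schizophrenia.

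Polyadenylated RNA of mouse frontal cortex was sequenced in 50 libraries, 5 from wild-type (WT) and 5 from Setd1a+/- mice per age, the ages being E14 and E18 before birth and P7, P35 and P70 after it. The Setd1a+/- mice carry 1 loss-of-function copy of Setd1a, the tm1d allele of a knockout-first design, in the germ line and so in every cell type, and both genotypes came from Setd1a+/- fathers and WT mothers. The labels give the strain of all groups as C57BL/6NTac, and the study's methods describe a mixed C57BL/6NTac and C57BL/6J background, only male animals, and embryos slightly older than the labels state. Total counts ranged from 35507165 to 43907318 per library, and a member held between 1714 (Setd1b) and 16379 (Kmt2a) counts in a library. The question asked of the paralogs, the 6 members other than Setd1a, was whether any of them was raised where 1 copy of Setd1a is lost.

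Values are CPM, the counts of a gene for each 10 to the power of 6 counts of the TMM-scaled library, or CPM divided by the kilobases of annotated exon (RPKM) where genes are compared with each other. Log2 fold changes are Setd1a+/- minus WT, or older minus younger, and a gene is called when its p from edgeR, adjusted over all tested genes of that comparison, is under 0.05. In whole tissue, a change in the number of cells of a type and a change of RNA per cell cannot be told apart.

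Of the 50 libraries, 3 are set apart here by sex-linked or hindbrain transcripts. WT replicate 5 at E14 and WT replicate 2 at E18 had Xist counts of 60159 and 55644. Xist is transcribed from the inactive X chromosome of females, yet the animals are described as male, and 4 Y-linked genes together had 0 and 11 counts in these libraries. Elsewhere Xist did not exceed 27 counts, and the Y-linked genes had no fewer than 4711. WT replicate 2 at P7 held 5.72 CPM summed over the hindbrain markers Hoxa2, Hoxb2 and Hoxb3, where Hoxb3 was the most abundant, against at most 0.128 CPM in the other WT libraries of that age. In that library the 4 neuronal markers summed to 2190.5 CPM (Stmn2 most abundant), against 2930.5 to 3188 CPM in the other WT libraries, and the 5 oligodendrocyte markers summed to 1229.8 CPM (Mbp most abundant), against 208 to 249 CPM. Its 3 choroid plexus markers summed to 579 CPM (Ttr most abundant), against 1.13 to 1.80 CPM. Genotype fold changes of the members at E14, E18 and P7, and the difference in their summed level, are therefore given with and without these libraries. Other libraries differed in other ways: at E14 Setd1a+/- replicate 2 held 330 CPM of endothelial markers (Cldn5 most abundant) and Setd1a+/- replicate 3 held 0.716 CPM of hindbrain markers (Hoxb3 most abundant), and the choroid plexus markers given below varied widely at E14 and E18. None of the 4 neuronal markers was at 0 in any library, and Snap25 or Stmn2 was the most abundant of them in each, which speaks for neural tissue and not for the region of cortex.

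Setd1a (ENSMUSG00000042308), the targeted gene, lies on chromosome 7 of GRCm38 from 127776670 to 127800122 on the plus strand and has 6795 bases of annotated exon. At E14 the 5 WT libraries held 123, 124, 130.02, 114 and 113 CPM of Setd1a, and the 5 Setd1a+/- libraries held 143, 129.9, 122, 133.03 and 124 CPM. The groups overlapped, with 2 of the 5 Setd1a+/- libraries above every WT library. At E18 the WT values were 89.0, 91.1, 90.1, 81.3 and 95.3 CPM, and the Setd1a+/- values were 99.0, 112, 92.3, 99.0 and 108 CPM. Here 4 of the 5 Setd1a+/- libraries were above every WT library, and replicate 3 was not. At P7 the WT values were 69.1, 72.6, 66.8, 67.3 and 67.9 CPM, and the Setd1a+/- values were 78.1, 74.6, 72.8, 79.5 and 79.8 CPM. At this age the groups did not overlap, and all 5 Setd1a+/- libraries were the higher ones (0.606% of tested genes in that direction, 2.22% in either). At P35 the WT values were 87.3, 78.5, 77.8, 80.6 and 81.2 CPM, and the Setd1a+/- values were 87.5, 84.0, 84.1, 85.2 and 87.2 CPM. WT replicate 1 lay within the Setd1a+/- range and the other 4 WT libraries below it. At P70 the WT values were 80.4, 84.5, 80.8, 77.7 and 87.7 CPM, and the Setd1a+/- values were 78.1, 81.9, 77.6, 73.0 and 93.2 CPM, so that the Setd1a+/- group held both the lowest and the highest library.

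With age as a covariate, Setd1a was 1 of 7 members called (4.43% of tested genes were called, 0.68% as higher), and it was higher, not lower, in Setd1a+/- libraries. Its log2 fold change was 0.10 (standard error 0.025, 95% interval 0.05 to 0.15, adjusted p = 0.00675), a level 7.44% above WT with an interval of 3.75% to 11.3%. Without the 2 libraries with Xist counts it was 0.10 with an adjusted p of 0.0181. By age the log2 fold change was 0.11 at E14 (adjusted p = 0.394) and at the later ages 0.19 (0.115), 0.16 (0.183), 0.08 (1) and -0.03 (1.00), and the gene was not called at any single age. The age by genotype interaction of Setd1a had an adjusted p of 0.753, so that a difference between ages was not shown. Without the libraries with Xist counts the values at E14 and E18 were 0.09 and 0.20, and without WT replicate 2 at P7 the value at P7 was 0.18. The deposited counts are sums over all exons of a gene, and RNA from the mutated copy can be counted in them, so they measure neither the intact transcript nor the genotype, and the genotypes are used as labelled.

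**Figure D1:**
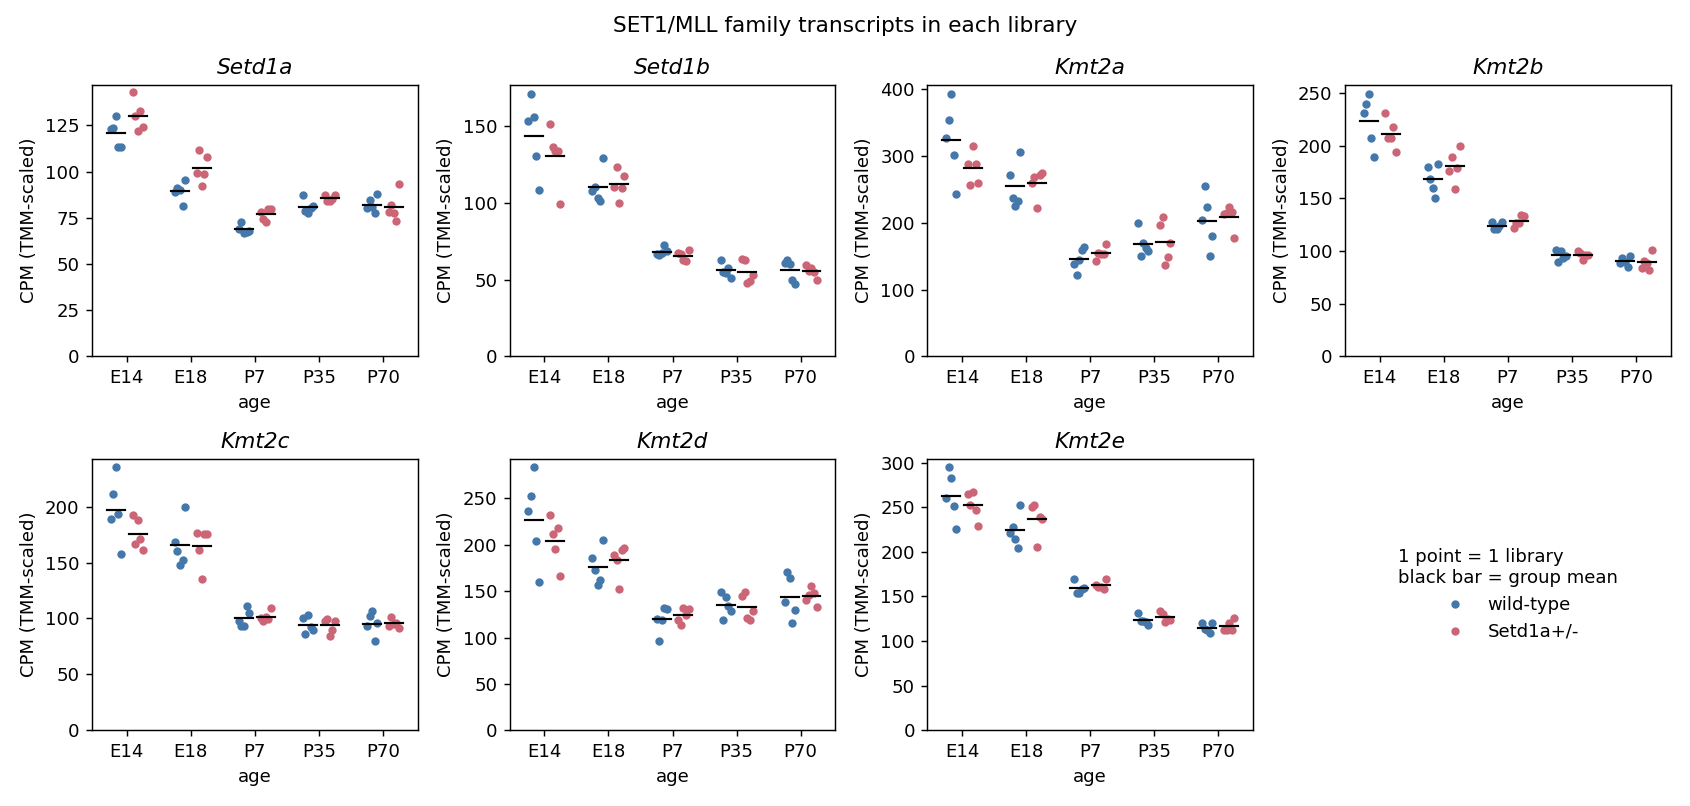
CPM of each member in every library at the 5 ages (points, 5 per group; bars, group means). Setd1a at P7, with 66.8 to 72.6 CPM in WT and 72.8 to 79.8 CPM in Setd1a+/- libraries, was the only member and age at which the groups did not overlap. At P7 this was so for 2.22% of tested genes in either direction.

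The Setd1a count is shared with another gene model. Gm49388 (ENSMUSG00000108815), annotated as protein-coding on the same strand, covers 3523 of the 6795 exonic bases of Setd1a (51.9%), and a fragment on shared bases was counted for both genes. The count of Setd1a was therefore split into fragments also counted for Gm49388, taken as the Gm49388 count minus that of Hsd3b7, a gene that Gm49388 also covers, and the rest, a division chosen after seeing the data. The shared fragments made up 66.9% ± 1.91 (SD, n = 5) of the Setd1a count in WT and 69.4% ± 0.385 in Setd1a+/- libraries at E14, 67.7% ± 1.73 and 69.2% ± 1.93 at E18, and 67.7% ± 2.27 and 69.4% ± 0.848 at P7. Without the libraries set apart above the WT values were 66.6% ± 2.12 at E14, 67.3% ± 1.73 at E18 and 68.6% ± 1.504 at P7 (n = 4), so that the difference at P7 went from 1.67 to 0.841 points. At P35 they made up 65.7% ± 2.42 and 68.7% ± 0.993, and at P70 65.8% ± 1.58 and 67.5% ± 1.88. The mean share was higher in Setd1a+/- libraries at 5 of 5 ages, the groups overlapped at each of them, and no difference passed the test over 5 comparisons: the lowest p, at E14 and at P35, was 0.0397 in a two-sided exact permutation test (0.0992 adjusted; the smallest p possible with 5 against 5 libraries is 0.00794).

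The part of Setd1a shared with Gm49388 averaged 80.6, 60.5, 46.5, 53.2 and 54.0 CPM from E14 to P70 in WT libraries and 90.5, 70.6, 53.4, 58.8 and 54.5 CPM in Setd1a+/- libraries. Its log2 fold change with age as a covariate was 0.15 (95% interval 0.10 to 0.20, adjusted p = 5.39e-05). The rest of Setd1a averaged 40.1, 28.9, 22.2, 27.8 and 28.2 CPM in WT libraries and 39.9, 31.4, 23.5, 26.8 and 26.2 CPM in Setd1a+/- libraries. That rest was not called, with a log2 fold change of 0.0089 (95% interval -0.06 to 0.08, adjusted p = 0.960). Where the whole count of Gm49388 was taken away instead, the remainder of Setd1a had a log2 fold change of 0.05 (95% interval -0.06 to 0.17, adjusted p = 0.762). By age the rest was at -0.0073, 0.12, 0.08, -0.05 and -0.10 from E14 to P70 and the remainder at -0.05, 0.12, 0.33, -0.03 and -0.09, and neither was called at any age. The shared part was at 0.17, 0.22, 0.20, 0.14 and 0.01, and was not called either. Its groups did not overlap at E14, E18, P7 and P35 (0.784%, 2.22%, 2.22% and 2.25% of tested genes in either direction). WT libraries held at most 83.9, 63.49, 48.0 and 56.7 CPM there, and Setd1a+/- libraries at least 84.7, 63.58, 50.9 and 57.4 CPM. At P70 the groups overlapped. Without the libraries with Xist counts the shared part was at 0.15 at E14 and 0.24 at E18, where it was then called (adjusted p = 0.0366), the rest at -0.04 and 0.11 and the remainder at -0.08 and 0.11. Over all ages the rest was then at -0.0024, with the shared part at 0.15 and still called. Without WT replicate 2 the 3 parts at P7 were at 0.20, 0.15 and 0.39, and 0 of them were called; the shared part at E18 was called in that fit as well (adjusted p = 0.0478). At P7 the remainder had a 95% interval of 0.09 to 0.57 (adjusted p = 0.275). Its groups did not overlap there (2.22% of tested genes in either direction), with 10.6 to 14.3 CPM in WT and 14.8 to 16.8 CPM in Setd1a+/- libraries. Taking away the whole Gm49388 count also takes away fragments of Hsd3b7, so a lower Hsd3b7 count makes the remainder higher. The groups of the rest overlapped at P7, with 19.9 to 25.8 CPM in WT and 21.9 to 25.5 CPM in Setd1a+/- libraries. Gm49388 itself, with its whole count, was called as higher (log2 fold change 0.12, adjusted p = 0.000505). Of the neighbours on chromosome 7, named after their values were seen, Orai3 was lower in Setd1a+/- libraries (log2 fold change -0.32, adjusted p = 8.25e-05) and Hsd3b7 was not called (-0.06, adjusted p = 0.596).

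**Figure D2:**
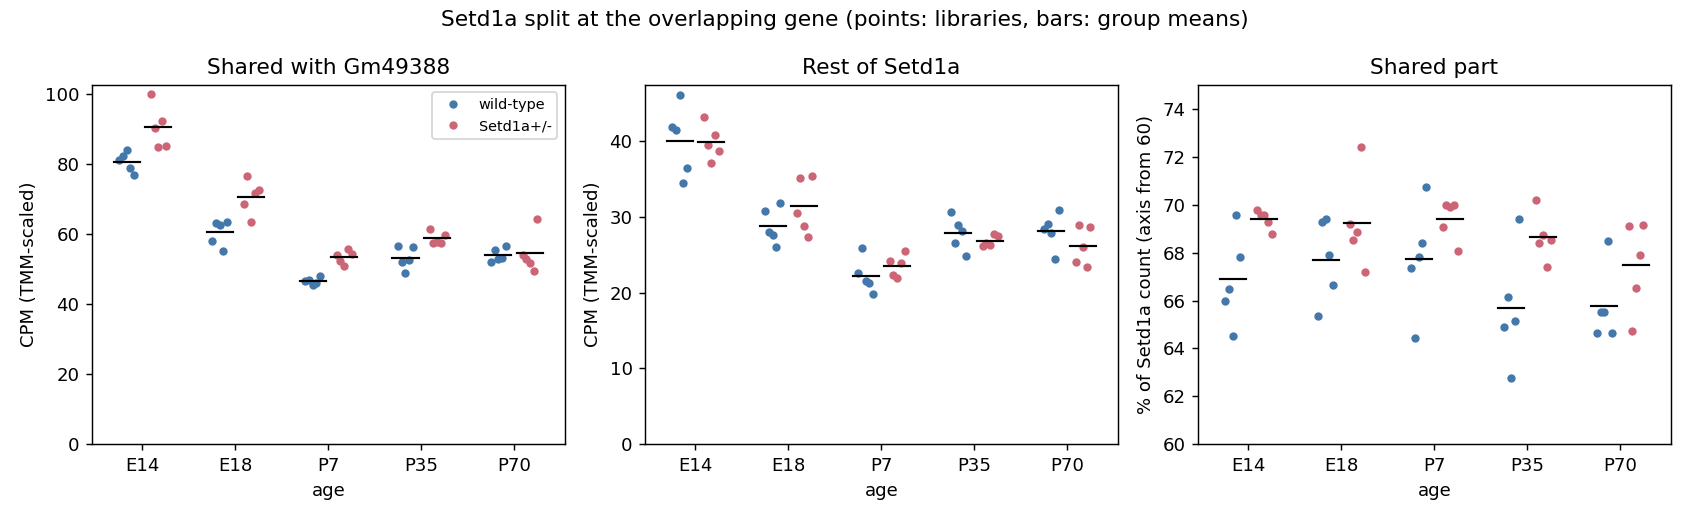
Setd1a fragments shared with Gm49388 and the rest in CPM, and the shared part as a percent of the Setd1a count, in each library (points, 5 per group; bars, group means; the percent axis starts at 60). The mean percent was higher in Setd1a+/- libraries at each age, from 67.5% to 69.4% against 65.7% to 67.7% in WT. In percent the groups overlapped at each age, and in CPM of the shared part they did not overlap at E14, E18, P7 and P35 (0.784%, 2.22%, 2.22% and 2.25% of tested genes in either direction).

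Setd1b (ENSMUSG00000038384, chromosome 5 from 123142193 to 123168629, plus strand) is the closest paralog of Setd1a and its counterpart in SET1-type complexes. At E14 its WT values were 153, 170.2, 156, 130.2 and 108 CPM, and its Setd1a+/- values were 151, 136, 133.3, 133.5 and 98.8 CPM. The groups overlapped, and replicate 5 was the lowest of each. Over the ages from E18 to P70, WT libraries ranged from 101 to 129, 66.0 to 72.5, 51.2 to 62.7 and 47.2 to 62.9 CPM, and Setd1a+/- libraries from 99.5 to 123, 61.9 to 69.0, 47.7 to 63.3 and 49.9 to 59.5 CPM. The groups overlapped at each age. Its log2 fold change with age as a covariate was -0.04 (95% interval -0.13 to 0.04, adjusted p = 0.743), an interval of -8.55% to 2.95%.

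Kmt2a (ENSMUSG00000002028, chromosome 9 from 44803355 to 44881296, minus strand) encodes MLL1, which acts with menin. At E14 its WT values were 327, 355, 393, 301 and 243 CPM, and its Setd1a+/- values were 289, 257, 316, 288 and 260.3 CPM. No Setd1a+/- library reached the WT median, and the groups overlapped. The same was so for Setd1b, Kmt2c and Kmt2d at E14 and for Setd1b at P70. At the 4 later ages WT libraries ranged from 225 to 306, 122 to 165, 149.9 to 199 and 150.5 to 254 CPM, and Setd1a+/- libraries from 222 to 275, 143 to 169, 136 to 209 and 177 to 223 CPM, with overlap at each age. The log2 fold change of Kmt2a over all ages was -0.0021 (95% interval -0.11 to 0.10, adjusted p = 0.993), an interval of -7.13% to 7.37%. The sign of this value near 0 changed with the normalization. Kmt2b (ENSMUSG00000006307, chromosome 7 from 30568858 to 30588726, minus strand) encodes MLL2, the nearest relative of MLL1. Its WT libraries ranged from 189 to 249, 151 to 183, 121 to 128, 89.6 to 101 and 85.1 to 95.5 CPM from E14 to P70, and its Setd1a+/- libraries from 193.9 to 231, 159.2 to 200.0, 122 to 135, 92.0 to 100.5 and 81.9 to 101 CPM. The groups overlapped at each age, and the log2 fold change was 0.01 (95% interval -0.04 to 0.07, adjusted p = 0.907), an interval of -2.93% to 4.89%.

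Kmt2c (ENSMUSG00000038056, chromosome 5 from 25271798 to 25498783, minus strand) encodes MLL3. Its WT libraries ranged from 157.55 to 235, 148 to 199, 93.2 to 111, 86.4 to 103 and 79.6 to 107 CPM from E14 to P70, and its Setd1a+/- libraries from 161.6 to 192.6, 136 to 177, 97.9 to 109, 84.4 to 99.5 and 91.3 to 101 CPM. The groups overlapped at each age, and the log2 fold change was -0.03 (95% interval -0.11 to 0.04, adjusted p = 0.801), an interval of -7.07% to 2.99%. Kmt2d (ENSMUSG00000048154, chromosome 15 from 98831669 to 98871204, minus strand) encodes MLL4, which shares its enhancer role with MLL3. Its WT libraries ranged from 159.4 to 284, 156 to 205.7, 96.5 to 131.7, 119 to 149 and 115 to 171 CPM, and its Setd1a+/- libraries from 166 to 232, 153 to 196.2, 114 to 131.6, 119 to 149 and 133.2 to 155 CPM. The groups overlapped at each age, and the log2 fold change was -0.01 (95% interval -0.11 to 0.08, adjusted p = 0.951), an interval of -7.37% to 5.93%. Kmt2e (ENSMUSG00000029004, chromosome 5 from 23434441 to 23504235, plus strand) encodes MLL5, the relative with little known H3K4 methylating activity. Its WT libraries ranged from 225 to 295, 204.8 to 252, 154 to 169, 118 to 130.97 and 109 to 121 CPM, and its Setd1a+/- libraries from 229 to 267, 205.8 to 252, 158.4 to 169, 122 to 133.3 and 112 to 126 CPM. These ranges overlapped at each age, and the log2 fold change was 0.02 (95% interval -0.03 to 0.07, adjusted p = 0.804), an interval of -1.99% to 5.08%.

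With age as a covariate, edgeR called 0 of the 6 paralogs (4.43% of tested genes were called, 0.68% as higher), and 0 of them had an unadjusted p under 0.05 (14.5% of tested genes); DESeq2 and limma-voom also called 0. Without the libraries with Xist counts 0 were called as well, with log2 fold changes from -0.06 (Setd1b) to 0.01 (Kmt2e). The median log2 fold change of the 6 was -0.0079, beside 0.0013 over all tested genes. The upper ends of their 95% intervals lay between 2.95% (Setd1b) and 7.37% (Kmt2a) above WT, so that a rise of any paralog beyond 7.37%, averaged over the ages, was outside its interval, while smaller rises were not excluded. In 60 other fits that changed 1 setting or left out libraries, 0 paralogs were called in any, their log2 fold changes lay between -0.06 and 0.03, and Setd1a was called as higher in 60 of 60 with values from 0.10 to 0.11.

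At single ages 0 of 7 members were called at E14 (0.129% of tested genes were called), E18 (0.11%), P7 (0.735%), P35 (0%) and P70 (0.233%). The count of genes at P7 went from 120 to 7 without WT replicate 2, and 0 members were called then as well. DESeq2 and limma-voom also called 0 members at each age. At an unadjusted p under 0.05 edgeR gave 1 of 7 members, Setd1a, at E14 (11.6% of tested genes), E18 (11.4%) and P7 (8.87%), and 0 at P35 (3.37%) and P70 (6.55%). At P35, where edgeR called 0 genes in all, 551 had an unadjusted p under 0.05, DESeq2 called 11 and limma-voom 0. The groups of Setd1a did not overlap at P7, as was so for 0.606% of tested genes in that direction and 2.22% in either. For the paralogs the count of groups that did not overlap was 0 at each age, as it was for Setd1a at the other ages, beside 0.784% of tested genes at E14, 2.22% at E18, 2.25% at P35 and 1.79% at P70.

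The paralogs had their lowest genotype values at E14, where 6 of 6 were below 0. Their log2 fold changes there were -0.20 (Kmt2a), -0.16 (Kmt2c), -0.15 (Kmt2d), -0.14 (Setd1b), -0.08 (Kmt2b) and -0.06 (Kmt2e), with adjusted p from 0.440 to 0.734. The 95% interval was widest for Kmt2a, from -0.43 to 0.04 on the log2 scale. Without the 2 libraries with Xist counts they were -0.29, -0.24, -0.26, -0.23, -0.13 and -0.11, the lowest adjusted p was 0.0748 (Kmt2c), and 0 were called, in a fit that called 795 of 16401 tested genes at this age. In that fit 6 of 6 paralogs, and not Setd1a, had an unadjusted p under 0.05, as did 3609 of the tested genes. Their 95% intervals, which are not adjusted, all lay below 0, from -0.52 to -0.05 for Kmt2a and from -0.40 to -0.07 for Kmt2c. Other omissions of 1 library made the decreases smaller: without WT replicate 3 Kmt2a was at -0.12, Kmt2c at -0.09, Kmt2d at -0.06 and Kmt2b at -0.04, without Setd1a+/- replicate 5 Setd1b was at -0.05, and without WT replicate 2 Kmt2e was at -0.02. The median log2 fold change at E14 was also below 0 over all tested genes, at -0.03, and lower over the 1483 tested genes with at least 10000 bases of exon, at -0.06, of which 74.0% were below 0 beside 61.3% of all; their part in the result was not tested. Of the cell type markers at E14, 3 of 3 of endothelium (median 0.73) and 2 of 2 of blood (0.58) were above 0 and 7 of 7 of interneurons and ventral forebrain (-0.17) and 4 of 4 of neurons (-0.07) below 0, while 4 of 5 of microglia (0.26) were above 0, with 0 called; their part in the result was not tested. The endothelial markers summed to 62.9 to 83.0 CPM in WT and 65.4 to 330 CPM in Setd1a+/- libraries (Cldn5 most abundant), and those of blood to 224 to 749 and 184 to 699 CPM (Hbb-bs most abundant in 8 of 10). Those of interneurons and ventral forebrain summed to 832 to 1514.5 and 738 to 1148 CPM (Dlx1 most abundant), those of neurons to 521 to 819 and 582 to 773 CPM (Stmn2), and those of microglia to 30.2 to 40.2 and 32.9 to 65.4 CPM (Csf1r). Without Setd1a+/- replicate 2, which held the 330 CPM of endothelial markers, the endothelial sum averaged 78.6 CPM in that group, and the medians were 0.15 over endothelium, 0.57 over blood, -0.10 over interneurons and ventral forebrain, -0.07 over neurons and 0.07 over microglia. Of the neuronal markers 3 of 4 were then below 0. The striatal median was -0.17 (5 of 5 below 0) in that fit and -0.04 (3 of 5) with all libraries. For progenitors the medians were 0.05 (1 of 6 below 0) and 0.01 (3 of 6). At E18 and P7 5 of 6 paralogs were above 0, and the highest values were 0.10 (Kmt2b at E18) and 0.09 (Kmt2a at P7). In the order Setd1b, Kmt2a, Kmt2b, Kmt2c, Kmt2d and Kmt2e the values at E18 were 0.02, 0.03, 0.10, -0.0057, 0.06 and 0.08, and 0.02, 0.0027, 0.10, -0.02, 0.05 and 0.09 without the libraries with Xist counts. At P7 they were -0.06, 0.09, 0.05, 0.02, 0.05 and 0.03, and -0.07, 0.03, 0.04, 0.0009, -0.02 and 0.02 without WT replicate 2, so that 4 of 6 were then above 0. Upper ends of the intervals for the paralogs reached 4.77% at E14, and over the next 4 ages 21.1%, 25.1%, 20.5% and 21.3%. For the interaction edgeR called 0 of 7 members (0% of tested genes were called), with adjusted p from 0.753 (Setd1a) to 1.00, and 0 members had an unadjusted p under 0.05. Over all genes it called 0 with 1098 at an unadjusted p under 0.05, and DESeq2 called 21 and limma-voom 0, with 0 members among them.

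**Figure D3:**
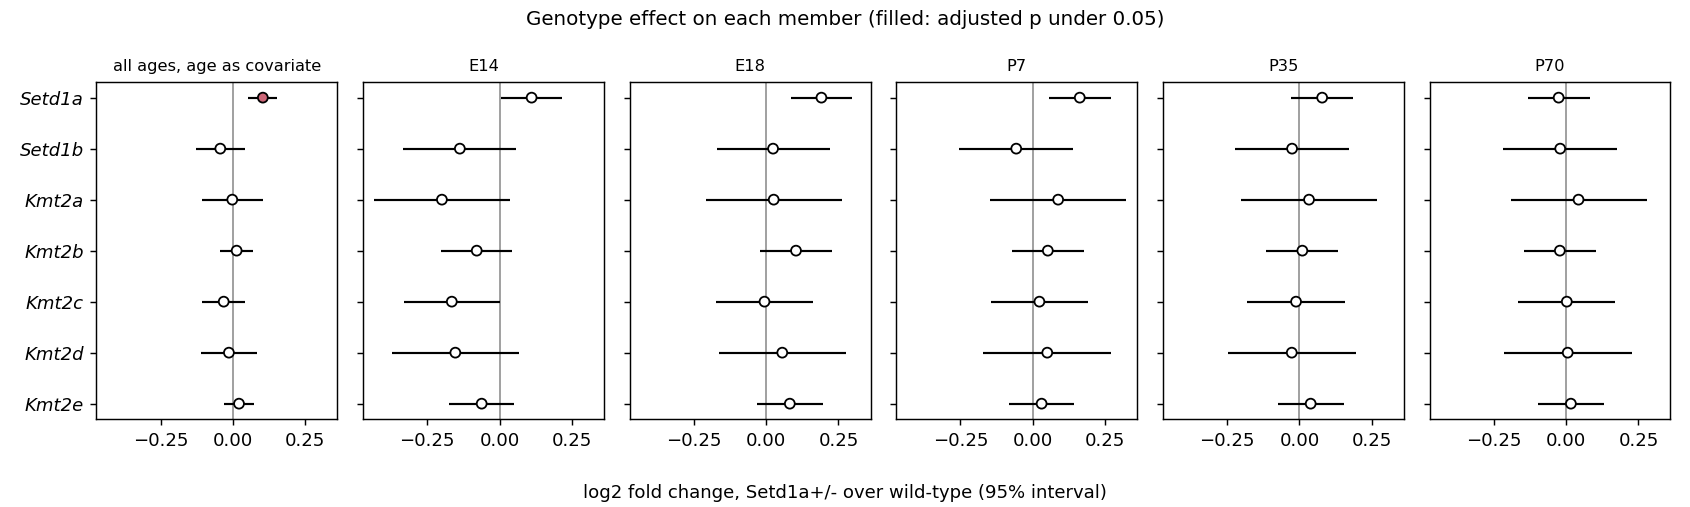
Log2 fold change of each member with its 95% interval, Setd1a+/- over wild-type, with all ages together and at each age (filled points, adjusted p under 0.05). Setd1a with all ages together, at 0.10, was the only filled point, and the paralogs lay between -0.04 and 0.02 there.

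Over age, in WT libraries alone, 7 of 7 members were called in the test of all ages together, as were 95% of tested genes. From E14 to E18, 7 of 7 members were called as lower (65.9% of tested genes were called, 34.1% as lower). Setd1a had a log2 fold change of -0.43 (adjusted p = 1.71e-09), Setd1b -0.38, Kmt2b -0.41, Kmt2d -0.37, Kmt2a -0.35, Kmt2c -0.25 and Kmt2e -0.23. From E18 to P7, 7 of 7 were again called as lower (67.3% called, 33.4% as lower). Here Setd1a had the smallest decrease, with a log2 fold change of -0.38, and Kmt2a the largest, with -0.81; the others lay between -0.44 (Kmt2b) and -0.73 (Kmt2c). All 7 members were called in both steps also without the 2 libraries with Xist counts, and from E18 to P7 also without WT replicate 2 at P7. From E14 to E18 Kmt2c lost its call without WT replicate 3 at E14, so that 6 of 7 were then called.

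From P7 to P35 the members went apart (67% of tested genes were called, 32.6% as higher and 34.3% as lower). Setd1a was the 1 of 7 called as higher, with a log2 fold change of 0.24 (adjusted p = 0.000125), and 3 of 7 were called as lower, namely Setd1b (-0.28, 0.0111), Kmt2b (-0.37, 9.61e-07) and Kmt2e (-0.37, 2.09e-07). Kmt2a (0.21, adjusted p = 0.116), Kmt2d (0.17, 0.158) and Kmt2c (-0.08, 0.394) were not called. Without WT replicate 2 at P7 the same 4 were called, with Setd1a at 0.26. Both parts of the Setd1a count were called as higher over this step, the part shared with Gm49388 at 0.19 and the rest at 0.32. With library size as the only scaling the median of all genes in this comparison shifted by -0.10 on the log2 scale, and Kmt2c was then called as lower at -0.18 (adjusted p = 0.0378). From P35 to P70, 0 of 7 members were called by edgeR (1.06% of tested genes were called), 1 had an unadjusted p under 0.05 (Kmt2a, log2 fold change 0.27, 95% interval 0.03 to 0.51, adjusted p = 0.341), and DESeq2 and limma-voom called 0. Between E14 and P70, 7 of 7 were called as lower (85.6% called, 42.9% as lower), from -0.55 for Setd1a to -1.35 for Setd1b; the median of all genes in this comparison shifted by -0.12 with library size as the only scaling.

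Per length of exon, the family summed to 118.6 ± 15.0 RPKM (SD, n = 5) in WT libraries at E14, and then to 93.5 ± 8.30, 63.6 ± 2.44, 59.9 ± 3.50 and 61.3 ± 5.07 RPKM at the later ages. In Setd1a+/- libraries the sum was 112 ± 7.62, 98.7 ± 7.51, 66.2 ± 2.01, 60.9 ± 4.21 and 61.4 ± 1.33 RPKM. The difference between genotypes in this sum was smaller than the larger SD at E14, E18, P35 and P70 and larger than it at P7, but not without WT replicate 2, where the WT mean was 64.4 RPKM. At E14 the WT mean was 124 RPKM without WT replicate 5, and the difference was then larger than the larger SD, with Setd1a+/- libraries lower. Without WT replicate 3 at E14 the WT mean was 115 RPKM, and the difference was smaller than the larger SD, as it was at E18 without WT replicate 2. At E14 the order of WT levels in RPKM was Kmt2e (25.2 ± 2.61), Kmt2b (23.3 ± 2.55), Kmt2a (19.4 ± 3.40), Setd1a (17.8 ± 1.06), Setd1b (11.9 ± 2.03), Kmt2d (11.4 ± 2.39) and Kmt2c (9.72 ± 1.41). Neighbours whose means differed by less than the larger of their SDs were Kmt2e and Kmt2b, Kmt2a and Setd1a, Setd1b and Kmt2d, and Kmt2d and Kmt2c. At E18 the order in RPKM was the same, from Kmt2e (21.4 ± 1.71), Kmt2b (17.5 ± 1.41), Kmt2a (15.3 ± 2.02) and Setd1a (13.1 ± 0.747) to Setd1b (9.12 ± 0.915), Kmt2d (8.85 ± 0.994) and Kmt2c (8.16 ± 1.01), and only the last 3 were within the spread of their neighbours.

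At P7 the WT order in RPKM was Kmt2e (15.2 ± 0.582), Kmt2b (12.9 ± 0.358), Setd1a (10.1 ± 0.341), Kmt2a (8.74 ± 1.03), Kmt2d (6.00 ± 0.714), Setd1b (5.64 ± 0.218) and Kmt2c (4.93 ± 0.381), and Kmt2d and Setd1b did not differ beyond their spread. At P35 Setd1a (11.9 ± 0.554) and Kmt2e (11.8 ± 0.455) came first, followed by Kmt2a (10.1 ± 1.14), Kmt2b (9.999 ± 0.482), Kmt2d (6.78 ± 0.597), Kmt2c (4.66 ± 0.348) and Setd1b (4.65 ± 0.357 RPKM). The pairs Setd1a and Kmt2e, Kmt2a and Kmt2b, and Kmt2c and Setd1b were within their spread. At P70 the WT levels were 12.2 ± 2.39 RPKM for Kmt2a, 12.1 ± 0.572 for Setd1a, 11.02 ± 0.488 for Kmt2e, 9.45 ± 0.429 for Kmt2b, 7.22 ± 1.17 for Kmt2d, 4.70 ± 0.507 for Kmt2c and 4.66 ± 0.598 for Setd1b. Here Kmt2a and Setd1a, and Kmt2c and Setd1b, did not differ beyond their spread. As a share of the summed RPKM in WT libraries, Setd1a made up 15.1%, 14.1%, 15.9%, 19.9% and 19.8% from E14 to P70, and 17.2%, 15.2%, 17.1%, 20.7% and 19.3% in Setd1a+/- libraries. Setd1b made up 9.98% of the WT sum at E14 and 7.59% at P70, and Kmt2a was lowest in its share at P7 (13.7%) and highest at P70 (19.7%). The place of Setd1a rests on fragments it shares with Gm49388: with the whole Gm49388 count taken away and only the 3272 bases outside that gene as length, its WT level was at the least 8.32, 5.52, 3.80, 5.50 and 5.48 RPKM, a share of 7.65%, 6.41%, 6.67%, 10.3% and 10.03%. The whole Gm49388 count also holds fragments of Hsd3b7, so the level of Setd1a may lie above this bound.

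**Figure D4:**
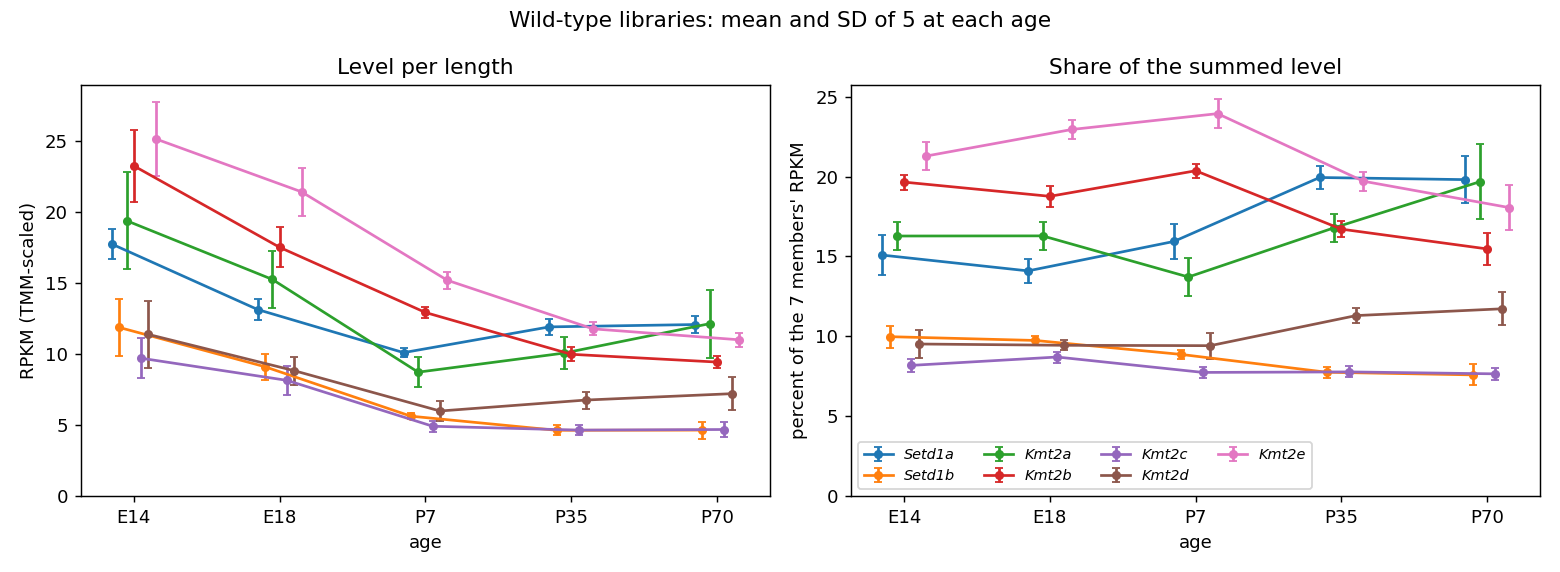
Level per length of exon (RPKM, left) and share of the summed level (right) of the 7 members in WT libraries at each age (mean and SD, n = 5). Setd1a went in share from 15.1% at E14 to 19.8% at P70 while its level went from 17.8 to 12.1 RPKM.

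The counts of other members carry less overlap than that of Setd1a. Kmt2e shares 972 of its exonic bases (9.31%) with Srpk2 on the opposite strand, Kmt2a shares 378 (2.27%) with AC061963.1, Kmt2c shares 274 (1.35%) with Gm42585, and Setd1a shares another 29 with 9430064I24Rik, while Setd1b, Kmt2b and Kmt2d share none. Counting was unstranded, so part of these counts may be RNA of the other gene. Srpk2 itself was not called with age as a covariate (log2 fold change 0.01, adjusted p = 0.899).

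Within groups, the members tended to be high or low in the same libraries. WT replicate 5 at E14, 1 of the libraries with Xist counts, was the lowest of its group for 7 of 7 members, WT replicate 5 at E18 the highest for 7 of 7, Setd1a+/- replicate 3 at E18 the lowest for 7 of 7, WT replicate 4 at P70 the lowest for 6 of 7, and WT replicate 1 at P35 the highest for 6 of 7. Over all tested genes these libraries were the lowest of their group in 34.5%, the highest in 26.7%, the lowest in 25.1% and 22.5%, and the highest in 22.0%. The 1483 genes with at least 10000 bases of exon moved the same way in them, by a median of -0.11, 0.08, -0.06, -0.13 and 0.03 on the log2 scale from the mean of the age; their part in the result was not tested. As a description over the 50 libraries, which share the 5 ages, the tested gene whose log2 CPM was most alike that of Setd1a was Cog2 (Pearson r 0.954), then Mbtps1 (0.951) and Rcc2 (0.945). The most alike genes were Spen for Setd1b (0.990), Fam193a for Kmt2b (0.989), Med13 for Kmt2c (0.980) and Adnp for Kmt2e (0.991). Kmt2a and Kmt2d were each the most alike gene of the other (0.962).

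Because Kmt2a and Kmt2d moved together, the RefSeq promoter windows of both are shown, the 250 bases before the annotated start on GRCm38.p6, in lower case with every CG in capitals. They lie at chr9:44881290-44881539 and chr15:98871206-98871455, both on the minus strand and written 5′ to 3′.
Kmt2a: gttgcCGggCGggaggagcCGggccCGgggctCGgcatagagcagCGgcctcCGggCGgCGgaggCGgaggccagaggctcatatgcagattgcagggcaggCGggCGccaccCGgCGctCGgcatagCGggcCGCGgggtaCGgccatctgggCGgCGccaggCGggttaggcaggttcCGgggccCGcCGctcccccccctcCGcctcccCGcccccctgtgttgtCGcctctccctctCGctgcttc
Kmt2d: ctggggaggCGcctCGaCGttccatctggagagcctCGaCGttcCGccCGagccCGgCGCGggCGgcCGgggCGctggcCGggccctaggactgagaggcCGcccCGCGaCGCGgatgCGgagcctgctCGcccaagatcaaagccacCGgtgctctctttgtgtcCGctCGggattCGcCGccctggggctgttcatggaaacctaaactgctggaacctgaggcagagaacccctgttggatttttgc
They hold 29 and 26 CG, beside a median of 6 over 32851 promoters, and each holds GGGCGG, read on both strands, 4 times. At least 1 GGGCGG is found in 32.7% of promoters, and the share of promoters with 4 was not counted. CCGGAA, also read on both strands, was found 1 time in the window of Kmt2a, where it overlaps no GGGCGG, and 0 times in that of Kmt2d, and 12.0% of promoters hold it. The window of Kmt2a includes 7 bases that the GENCODE annotation places in its first exon. RefSeq windows matched 4 of the 7 members; Setd1a and Kmt2c had 25 and 48 CG, the Setd1a window (chr7:127777139-127777388) lying wholly within the GENCODE gene, and Setd1b, Kmt2b and Kmt2e had no match.

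Cell type markers moved over the same ages as the members. In WT libraries the 6 progenitor markers summed to 1152, 381, 190.0, 82.9 and 73.2 CPM from E14 to P70 (Top2a most abundant at E14), the 4 neuronal markers went from 679 to 4402 CPM and the 5 oligodendrocyte markers from 62.1 to 3122 CPM; their part in the result was not tested. The 3 choroid plexus markers summed to 0.364 to 358 CPM in WT and 0.819 to 422 CPM in Setd1a+/- libraries at E14, and to 1.93 to 216 CPM and 0.854 to 2.64 CPM at E18, with Ttr the most abundant where they were high. At P70 the 5 striatal markers summed to 212 to 773 CPM in WT and 337 to 845 CPM in Setd1a+/- libraries. With age as a covariate, edgeR called 0 of the 6 progenitor, 0 of the 4 neuronal, 0 of the 5 astrocyte and 0 of the 5 oligodendrocyte markers by genotype. It also called 0 of those of the cortical excitatory lineage (6), interneurons and ventral forebrain (7), striatum (5), microglia (5), endothelium (3), blood (2) and choroid plexus (3). At P7 2 of the 5 oligodendrocyte and 1 of the 3 choroid plexus markers were called as lower in Setd1a+/- libraries (0.735% of tested genes were called), where WT replicate 2 had the most of both. The 3 endothelial markers were at 0.62 to 1.01 on the log2 scale at E14 (0.09 to 0.23 without Setd1a+/- replicate 2) and at -0.92 to -0.09 at E18, and none was called at either age.

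The other genes of the pathway were 27, from 6 lists, and all 27 passed the filter. With age as a covariate 1 of them was called as higher and 3 as lower in Setd1a+/- libraries. Of the 16330 tested genes 4.43% were called, 0.68% as higher, and 612 genes were called as lower. Wdr5, of the core that the complexes share, had a log2 fold change of 0.08 (adjusted p = 0.0364), and the other core genes Rbbp5, Ash2l and Dpy30 were not called. Pagr1a, a partner of MLL3 and MLL4, had -0.09 (0.0250), Setd5, a relative of Kmt2e, had -0.07 (0.0332), and Prdm9, a methyltransferase of meiotic cells, had -0.32 (0.00530). The call of Wdr5 was lost with no filter on low counts (adjusted p = 0.0547), over all annotated genes (0.0505) and in 16 fits that left out 1 library, and that of Setd5 with DESeq2 size factors (0.0583) and in 17 such fits. Of the 4 SET1-type partners, the 3 MLL1 and MLL2 partners and the 6 H3K4 demethylases 0 were called by edgeR, with the largest differences in Hcfc1 (-0.08, adjusted p = 0.0815; called with library size as the only scaling, 0.0202), Hcfc2 (-0.05, 0.566) and the Y-linked Kdm5d (0.10, 0.905; -0.03 without the libraries with Xist counts). The median log2 fold change was 0.04 over the core, 0.01 over the SET1-type partners, 0.0053 over the MLL1 and MLL2 partners, -0.05 over the MLL3 and MLL4 partners, 0.0032 over the demethylases and -0.04 over the other methyltransferases and relatives, beside -0.0021 over the 7 members and 0.0013 over all tested genes.

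Over age in WT libraries, the pathway genes were called as lower more often than as higher. From E14 to E18, 22 of the 27 were called as lower and 3 as higher (65.9% of tested genes were called, 34.1% as lower), and from E18 to P7 19 as lower and 5 as higher (67.3% and 33.4%). The list of other H3K4 methyltransferases and relatives, with 6 genes, had 3 called as higher and 3 as lower in the earlier step (median log2 fold change 0.15) and 4 as higher and 2 as lower in the later one (0.52). From P7 to P35, where the members went apart, 14 were called as lower and 6 as higher (67% of tested genes were called, 34.3% as lower), and from P35 to P70 1 as lower and 0 as higher (1.06% called). Between E14 and P70, 20 of the 27 were called as lower (85.6% of tested genes were called, 42.9% as lower), among them 4 of 4 core genes, 4 of 4 SET1-type partners, 2 of 3 MLL1 and MLL2 partners, 3 of 4 MLL3 and MLL4 partners and 5 of 6 demethylases, while of the 6 other methyltransferases and relatives 4 were called as higher and 2 as lower (median 0.70). The median log2 fold change between E14 and P70 was -0.83 over the 27 pathway genes and -1.05 over the 7 members, beside -0.0019 over all tested genes.

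**Figure D5:**
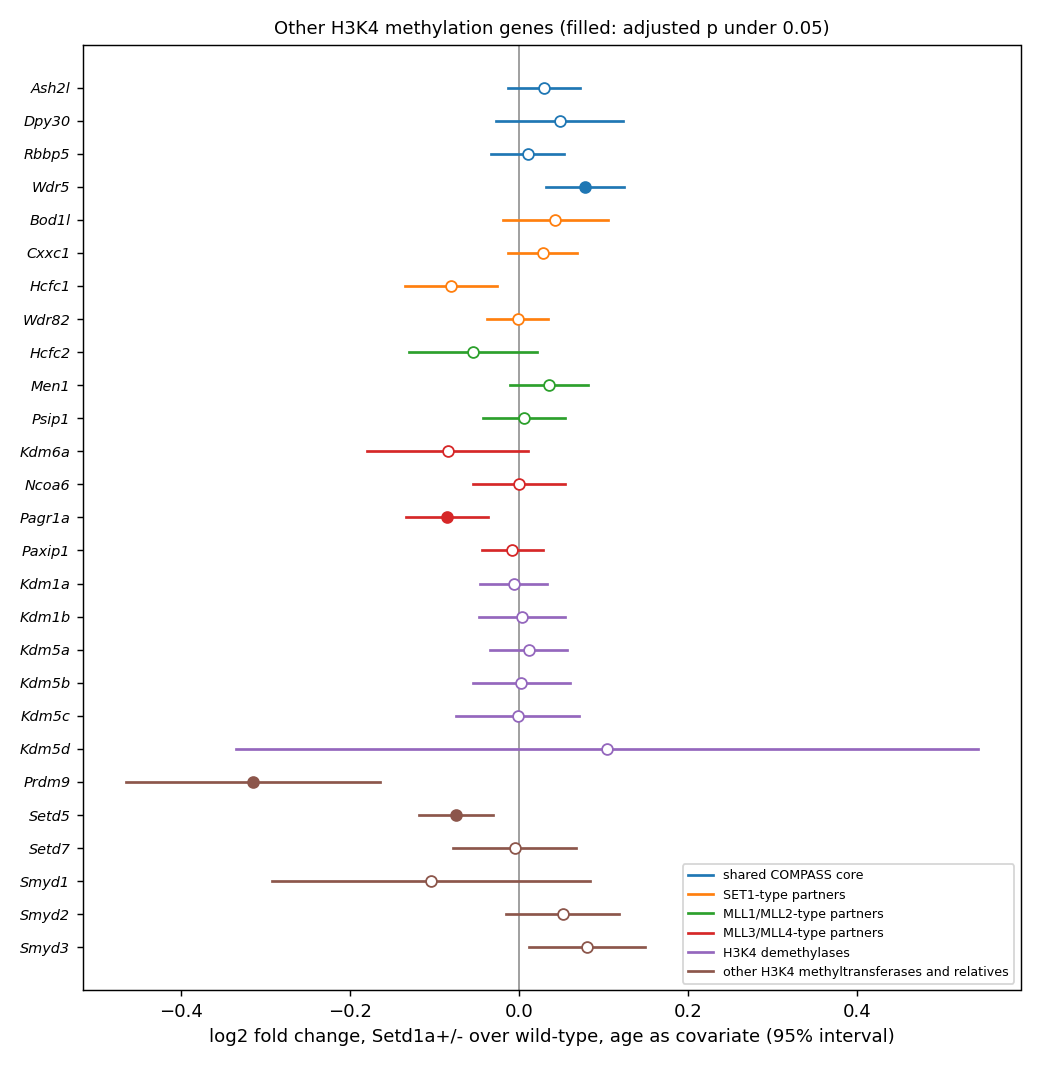
Log2 fold change with its 95% interval, Setd1a+/- over wild-type with age as a covariate, of the 27 other genes of the pathway, coloured by list (filled points, adjusted p under 0.05). Wdr5 at 0.08 was filled above 0, and Pagr1a at -0.09, Setd5 at -0.07 and Prdm9 at -0.32 below it.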

How the data were processed

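The gene-level count files that the authors deposited were used, 1 for each of the 50 libraries. The authors trimmed reads with Trimmomatic, aligned them to GRCm38 with STAR and counted exons with featureCounts 1.4.6-p2, without regard to strand and with a fragment that overlaps more than 1 gene counted for each. No read was realigned here. Gene names and types came from GENCODE vM21, and of 21897 protein-coding genes the 16330 that passed filterByExpr of edgeR with its default settings were tested. Counts were fitted in edgeR 4.0.16 (R 4.3.3, limma 3.58.1) with TMM factors, quasi-likelihood F tests and a group for each age and genotype, or genotype with age as a covariate. P values were adjusted by the method of Benjamini and Hochberg over the 16330 genes of each comparison, and intervals were taken from the estimate and its standard error. Every adjusted p for a fold change or interaction in the text is from this edgeR fit unless another tool is named.

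Alternatives were DESeq2 1.42.0, limma-voom, DESeq2 size factors, scaling by library size, other filters, all annotated genes, the replicate number as a block, RIN as a covariate, an adjusted p of 0.01, and leaving out libraries. The paralogs are named in each result, and a gene of the other lists is named where it was called with age as a covariate, or else as the largest difference of a list with none called. Members and lists were chosen with earlier results of these data known.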

Additional observations from a re-analysis of the deposited data

Results flagged for a closer look

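In 3 of the 70 combinations of member, age and genotype 1 library lay far from the other 4, where chance gives about 1 in 20 groups. All 3 were Setd1a+/- libraries on the low side. Kmt2a in replicate 3 at E18 was at 221.7 CPM against 259.1 to 275.4 CPM in the others, Kmt2d in the same library at 152.8 CPM against 183.7 to 196.2 CPM, and Kmt2a in replicate 5 at P70 at 177.3 CPM against 213.3 to 223.4 CPM. No value was removed for this reason.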

How the results depend on the processing

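Setd1a was called as higher with age as a covariate in each alternative except its split at Gm49388, chosen after seeing the data, where the rest was at 0.0089 and the remainder after the whole Gm49388 count at 0.054. The split values were -0.0073 and -0.053 at E14 and -0.053 and -0.029 at P35, and the shared part was at 0.013 at P70. No paralog was called by genotype in any alternative. Kmt2a with age as a covariate changed sign, to 0.0029 with DESeq2 size factors, 0.0030 with DESeq2, 0.0058 with limma-voom and 0.0017 at a filter of 10 CPM, and lay between -0.018 and 0.018 with 1 library left out; Kmt2d lay between -0.029 and 0.0079 and Kdm5d was at -0.029 without the libraries with Xist counts. Scaling by library size put Setd1b at -0.016 and Kmt2a at -0.013 at E18, Kmt2c at -0.0017 at P7, and Setd1b at -0.013 and Kmt2c at -0.0041 for WT P70 minus P35. With RIN, the RNA integrity number, as a covariate Setd1b was at -0.0046 and Kmt2c at 0.048 at E18, Kmt2c at -0.021 at P70, and Setd1b at -0.0100 for WT P70 minus P35, where limma-voom gave -0.0030. With the replicate number as a block, Kmt2a with age as a covariate was at 0.0041, Hcfc1 was called as lower (adjusted p = 0.0385), and 37 genes were called at E18, 20 at P7, 3 at P35 and 3 in the interaction. Same-numbered libraries of the 2 genotypes were little more alike than others: over 25 such pairs r ranged from -0.207 to 0.460 (median 0.0644), 9 were over 0.1, and 7 libraries were best matched by their own number.

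The number of genes called moved far more than the values of the members. With age as a covariate it was 406 at an adjusted p of 0.01. At E14 it was 3 with library size, 114 with DESeq2, 9 at 10 CPM, 11 over all annotated genes, 795 without the libraries with Xist counts and 2 at 0.01. At E18 it was 111 with DESeq2, 10 with limma-voom, 7 at 10 CPM, 1 with RIN, 77 without the libraries with Xist counts and 3 at 0.01. At P7 it was 16 with limma-voom, 68 at 10 CPM and 19 at 0.01. At P35 it was 2 with DESeq2 size factors, 11 with DESeq2, 1 at 10 CPM, 2 over all annotated genes and 3 without the libraries with Xist counts. At P70 it was 78 with DESeq2 and 6 at 0.01, for WT P70 minus P35 277 with DESeq2, 101 with RIN and 41 at 0.01, and in the interaction 21 with DESeq2 and 13 without the libraries with Xist counts. With 1 library left out it ranged from 1 (WT replicate 1) to 741 (WT replicate 5) at E14, from 7 (Setd1a+/- replicate 2) to 150 (Setd1a+/- replicate 2 at E14) at E18, from 7 (WT replicate 2) to about 2.1e+02 (WT replicate 3) at P7 and from 0 to 5 (WT replicate 2 at P7) at P35. It ranged from 8 (Setd1a+/- replicate 4) to 92 (Setd1a+/- replicate 5) at P70, from 48 (WT replicate 5 at P35) to 277 (WT replicate 5 at P70) for WT P70 minus P35 and from 0 to 5 (WT replicate 5 at E14) in the interaction; the cause was not tested.

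With 1 library left out, values at single ages that changed sign lay in these ranges: at E18 Setd1b -0.013 to 0.089, Kmt2a -0.014 to 0.10 and Kmt2c -0.043 to 0.072, at P7 Kmt2c -0.0015 to 0.063 and Kmt2d -0.016 to 0.087, and at P35 Setd1b -0.079 to 0.022, Kmt2a -0.044 to 0.11, Kmt2b -0.013 to 0.030, Kmt2c -0.042 to 0.024 and Kmt2d -0.069 to 0.013. At P70 they were Setd1a -0.080 to 0.0090, Setd1b -0.075 to 0.024, Kmt2a -0.045 to 0.14, Kmt2b -0.068 to 0.0089, Kmt2c -0.054 to 0.046, Kmt2d -0.062 to 0.076 and Kmt2e -0.0095 to 0.035, and for WT P70 minus P35 Setd1a -0.0035 to 0.049, Setd1b -0.040 to 0.062 and Kmt2c -0.031 to 0.073. WT E18 minus E14 of Kmt2c lay between -0.33 and -0.18 and lost its call without WT replicate 3 at E14. Wdr5 lay between 0.069 and 0.085 and lost its call in 16 omissions, Setd5 between -0.080 and -0.067 and lost it in 17, and Hcfc1 between -0.089 and -0.072 and gained it in 4. On the TPM scale Setd1a in WT was at 55.5, 42.4, 31.3, 34.6 and 34.6 and the sum of the family at 370.5, 301.4, 196.3, 173.9 and 175.5 from E14 to P70. With the whole Gm49388 count taken away, as a lower bound, Setd1a in WT was at 8.32, 5.52, 3.80, 5.50 and 5.48 RPKM from E14 to P70, a share of 7.65%, 6.41%, 6.67%, 10.3% and 10.03%, and the sum was 57.3 RPKM at P7, 53.5 at P35 and 54.7 at P70.

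These data hold RNA of whole frontal cortex from 5 mice a group, with no protein, no histone methylation and no count by exon or allele. A raised activity of a paralog without more RNA is therefore outside what was measured, and so is the loss of intact Setd1a transcript. The litter of each mouse was not given.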
